A study of Mus musculus with 69 samples.

Results

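The Schlafen genes (Slfn1, Slfn2, Slfn3, Slfn4, Slfn5, Slfn8 and Slfn9) are a family of interferon-inducible genes that lie side by side on mouse chromosome 11. The members were taken by their symbols, which gave 7 of the 24537 genes listed in each of 3 tables of gene expression and 7 of the 24527 genes in the allele tables of F1 mice. All 7 passed the filter of at least 1 TPM, the length- and depth-scaled share of transcripts, in at least 2 libraries in each of the 3 tables.

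The study measured poly(A) RNA of bone marrow-derived macrophages (BMDMs), cells grown from bone marrow with the growth factor M-CSF, and asked how genetic variation among mice changes the response to the cytokine interleukin-4 (IL-4). In all experiments the mice were female and aged 8 to 12 weeks. In the first experiment, BMDMs came from the wild-derived strains SPRET/EiJ (SPRET) and PWK/PhJ (PWK) and the classical strains NOD/ShiLtJ (NOD), BALB/cJ (BALB) and C57BL/6J (C57). They were left untreated (basal) or given 20 ng/ml mouse IL-4 for 24 hours, with 3 libraries per group, except PWK basal with 2. In the second, C57 and SPRET BMDMs were followed at 0, 1, 6 and 24 hours with 2 libraries per group, and in the third the same times were taken in Egr2 fl/fl BMDMs (Egr2WT) and in LyzM-Cre Egr2 fl/fl BMDMs (Egr2MKO), again with 2 libraries per group. Both genotypes carry the floxed Egr2 allele, and LyzM-Cre, which acts in myeloid cells, is present in Egr2MKO only, so loss of Egr2 and presence of Cre cannot be told apart. The labels give neither the background strain of these mice nor whether the 2 genotypes were littermates. A difference in background between the genotypes could therefore not be checked. The F1 offspring of C57 and SPRET and of C57 and NOD mice were measured basal and after 24 hours of IL-4, with 2 libraries per group. The 61 libraries of the 3 TPM tables held 4.69 to 32.9 M tags. Macrophage markers summed to 9330 TPM or more in every library, lowest in PWK (9620 to 9740 TPM basal and 9330 to 9630 TPM after IL-4). In the 5-strain libraries the neutrophil list of 10 genes summed to 15.2 to 602 TPM and was highest in PWK. The monocyte list of 5 genes summed to 0.627 to 38.6 TPM, with C57 basal highest at 35.8 to 38.6. The fibroblast list summed to 2.24 to 210 TPM and was highest in PWK (202 to 210 TPM basal and 105 to 112 TPM after IL-4). The T cell, B cell and dendritic cell lists summed to at most 6.20 TPM. The part of these cell types in the strain differences was not tested. In bulk RNA, fewer cells that express a gene and less RNA per cell cannot be told apart.

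Schlafen proteins share a conserved N-terminal domain and are grouped by length. Slfn1 and Slfn2 encode short proteins, Slfn3 and Slfn4 intermediate ones, and Slfn5, Slfn8 and Slfn9 long proteins with a helicase-like part. Type I interferon induces many of them through transcription factors that bind interferon-stimulated response elements. Slfn2 is best known for keeping T cells and monocytes quiescent, and Slfn4 is known from myeloid cells. EGR2, the factor removed in Egr2MKO cells, is itself induced by IL-4 in macrophages through STAT6.

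The members span 263.1 kb of chromosome 11 (mm10), from Slfn5 at chr11:82952102-82964850 (plus strand) through Slfn9 at chr11:82980303-82991830 and Slfn8 at chr11:83002158-83020810 (both minus) to Slfn2 at chr11:83065112-83070678, Slfn1 at chr11:83116845-83122659, Slfn4 at chr11:83175186-83190216 and Slfn3 at chr11:83191330-83215154 (all plus). The pseudogene Slfn10-ps lies between Slfn8 and Slfn2. Of the stretches of 75 bases, the read length, in annotated transcripts, 6.99% of those of Slfn8 and 5.90% of those of Slfn9 occur in another Schlafen transcript, most often Slfn10-ps. The corresponding share was 1.78% for Slfn4, 1.70% for Slfn2, 1.32% for Slfn3 and 0 for Slfn1 and Slfn5. How reads from shared stretches were counted was not stated, so the values of Slfn8 and Slfn9 carry that uncertainty. Slfn5os runs antisense over Slfn5, and the strand setting of the counting was not stated, so reads of this pair may not be separated.

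The RefSeq promoter windows (GRCm38.p6, 250 bases before to 50 after the start site, with all 7 members matched) are shown for the long members because they differ from the others in holding the core of the interferon-stimulated response element, which was searched as GAAA, any 2 bases and GAAA on either strand. The capitals mark its match, at chr11:83020811-83020920 (minus strand) for Slfn8, chr11:82991831-82991940 (minus strand) for Slfn9 and chr11:82951932-82952101 (plus strand) for Slfn5, each sequence ending at the base before the start site.
Slfn8: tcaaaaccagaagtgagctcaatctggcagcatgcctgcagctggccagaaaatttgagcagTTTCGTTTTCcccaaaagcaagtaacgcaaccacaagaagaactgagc
Slfn9: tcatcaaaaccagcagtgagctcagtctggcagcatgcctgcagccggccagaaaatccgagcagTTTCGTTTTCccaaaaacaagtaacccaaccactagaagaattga
Slfn5: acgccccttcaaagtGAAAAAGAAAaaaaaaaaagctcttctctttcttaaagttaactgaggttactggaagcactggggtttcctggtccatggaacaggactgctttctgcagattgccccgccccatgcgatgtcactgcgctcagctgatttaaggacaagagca
The match begins 48 bases before the start site in Slfn8 and 45 in Slfn9, whose upstream windows are identical at 208 of 239 aligned bases, and 155 bases before it in Slfn5, where it falls in a run of A. Slfn8 has another match 136 bases before its start site. Of all 32851 promoter windows, 3.44% hold this element. The windows of the short and intermediate members share another string, ACTTCCTG, which 3.33% of all windows hold on either strand; it was noticed after the sequences were seen. The capitals mark it at chr11:83116720-83116819 for Slfn1, chr11:83065012-83065111 for Slfn2, chr11:83175086-83175185 for Slfn4 and chr11:83191230-83191329 for Slfn3 (all plus strand), where Slfn3 has it on both strands.
Slfn1: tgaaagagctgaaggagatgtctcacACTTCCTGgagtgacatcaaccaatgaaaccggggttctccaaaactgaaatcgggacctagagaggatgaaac
Slfn2: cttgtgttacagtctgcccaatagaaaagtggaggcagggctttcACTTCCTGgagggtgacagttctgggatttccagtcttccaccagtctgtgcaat
Slfn4: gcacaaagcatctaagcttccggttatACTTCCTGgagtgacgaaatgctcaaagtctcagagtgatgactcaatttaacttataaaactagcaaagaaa
Slfn3: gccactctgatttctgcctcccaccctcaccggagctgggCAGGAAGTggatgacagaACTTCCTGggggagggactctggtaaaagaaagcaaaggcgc
No member window held TTC and GAA with 4 bases between them (6.95% of all windows), GCGGGGGCG (2.91%) or GCGTGGGCG (0.612%) on either strand, the letters searched for STAT6 and EGR sites. A match of letters describes these windows only, and no binding was measured there.

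Slfn2 was by far the most abundant member. It took 60.5% to 97.6% of the summed TPM of the 7 members in every library of the 3 tables, and its mean in the 5-strain table ranked above that of 99.6% of genes. Slfn5 followed with 8.54 to 69.7 TPM across the 5-strain libraries, then Slfn8 with 0 to 14.1 TPM, Slfn4 with 0.099 to 12.2 TPM and Slfn1 with 0 to 10.6 TPM. Slfn3 (0.471 to 5.34 TPM) and Slfn9 (0.088 to 1.20 TPM) were the lowest. Other rows with a Schlafen symbol were Slfn10-ps at 0.495 to 5.09 TPM, the antisense gene Slfn5os at 0.243 to 6.45 TPM, and Slfn14 and Slfnl1, both below 0.1 TPM in all 29 libraries.

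Basal levels differed by more than 2-fold among strains for 6 of the 7 members. The test was limma on log2(TPM + 1), and a difference was called when it exceeded 2-fold on that scale with a Benjamini-Hochberg adjusted p below 0.05 over all genes tested. Of the 70 basal tests (7 members in 10 pairs of strains), 33 were called, against 17.7% of the tests of all genes. Slfn4 was called in 7 of 10 pairs, Slfn1, Slfn5 and Slfn8 in 6 each, Slfn2 and Slfn3 in 4 each and Slfn9 in none. The 12 tested neighbours within 200 kb of the family were called in 17 of 120 tests, which is 14.2%.

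Among the short members, Slfn1, the first Schlafen gene described and known from thymocyte growth control, split the strains into levels far apart. Its basal values were 8.87, 10.4 and 8.27 TPM in C57 and 9.49, 8.39 and 8.35 TPM in NOD, against 1.10, 0.756 and 0.444 TPM in BALB and 0.772 and 0.796 TPM in PWK. In SPRET all 3 basal libraries were listed at 0. C57 and NOD overlapped (adjusted p = 0.688), as did PWK and BALB (adjusted p = 0.871), whereas NOD exceeded PWK by 2.45 (log2, adjusted p = 2.49e-13) and BALB exceeded SPRET (adjusted p = 7.21e-06). Slfn2 was high in every strain and ordered them differently. Its basal values were 1200, 1207 and 1214 TPM in NOD, 984 and 1020 TPM in PWK, 660, 621 and 676 TPM in C57, 503, 490 and 459 TPM in BALB and 394, 418 and 411 TPM in SPRET. None of these ranges overlapped, and each neighbouring pair in this order differed, by 0.25 to 0.62 on the log2 scale (adjusted p at most 3.03e-06).

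The intermediate members were highest in NOD. Slfn4 reached 12.2, 12.2 and 10.3 TPM in NOD, 3.72, 4.52 and 2.58 TPM in C57, 1.13, 0.845 and 0.695 TPM in BALB, 1.11 and 0.623 TPM in PWK and 0.158, 0.276 and 0.116 TPM in SPRET. NOD exceeded C57 by 1.47 ± 0.126 (log2, SE, adjusted p = 1.65e-10), and SPRET minus C57 was -1.94 ± 0.126 (adjusted p = 7.08e-13), while BALB and PWK overlapped (adjusted p = 0.896). Slfn3 measured 5.03, 5.32 and 4.96 TPM in NOD, against 1.18 to 2.25 TPM in the 8 libraries of C57, BALB and PWK and 0.471 to 0.689 TPM in SPRET. Only the ends of that order stood apart: NOD exceeded the next strain by 1.28 and SPRET lay below the next by 0.66 (log2, adjusted p = 6.52e-10 and 9.69e-05), and the middle 3 strains did not differ (adjusted p = 0.927 and 0.95 between neighbours).

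The long members Slfn5 and Slfn8 were highest in C57 and lowest in SPRET. Slfn5 held 62.1, 69.7 and 59.9 TPM in C57, 58.4, 44.7 and 44.4 TPM in BALB, 31.8, 37.3 and 33.0 TPM in NOD, 24.2 and 22.3 TPM in PWK and 8.85, 10.6 and 8.88 TPM in SPRET. All neighbours in that order differed (adjusted p at most 0.00985), and SPRET minus C57 was -2.64 ± 0.116. The step from C57 to BALB did not pass without BALB replicate 2 or 3 or C57 replicate 2 (adjusted p = 0.0541 to 0.056), nor that from BALB to NOD after rescaling by the median of ratios (-0.12, adjusted p = 0.269). Slfn8 measured 13.0, 12.1 and 12.6 TPM in C57, 10.4, 12.6 and 10.9 TPM in NOD, 8.41, 6.13 and 5.68 TPM in BALB and 3.37 and 2.61 TPM in PWK, but 0, 0.022 and 0.021 TPM in SPRET. Only C57 and NOD overlapped (adjusted p = 0.330). The SPRET minus C57 difference of Slfn8 was -3.74 ± 0.135 (adjusted p = 3.10e-18), a size that rests on the pseudocount because SPRET is near 0 (1.81 to 6.80 across the alternatives). SPRET reads were aligned to mm10 changed at known variants. Whether larger genome differences lower the counts of Slfn8 or Slfn1 in SPRET was not tested. Slfn9, the nearest relative of Slfn8, stayed between 0.165 and 1.18 TPM in all basal libraries. Its called differences were 0, and of the neighbouring strains only C57 and NOD differed, by 0.35 (adjusted p = 0.0453). That difference did not pass under either rescaling (adjusted p = 0.12 and 0.215) or without any of 4 of its 6 libraries.

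**Figure D1:**
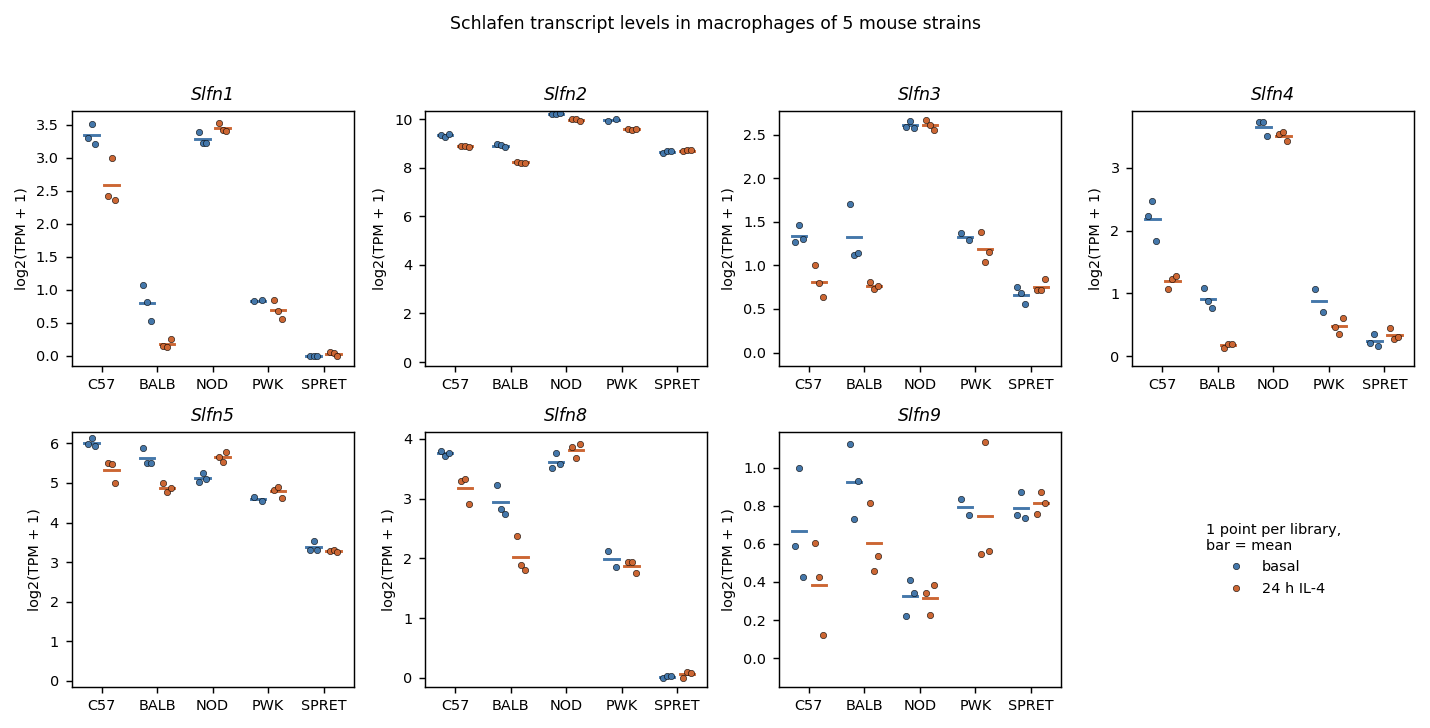
Levels of the 7 Schlafen members in BMDMs of 5 strains as log2(TPM + 1), 1 point per library and a bar at the group mean, basal in blue and 24 hours of IL-4 in orange. Slfn8 lies near 0 in all 6 SPRET libraries while Slfn2 is at 295 TPM or more in every library, and Slfn1 and Slfn4 are highest in C57 and NOD.

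Basally, NOD was highest and SPRET lowest for Slfn2, Slfn3 and Slfn4, but not for Slfn1, Slfn5, Slfn8 and Slfn9. The summed level of other interferon-regulated genes also had NOD highest and SPRET lowest. On a list of 28 interferon-stimulated genes, SPRET minus C57 basal was called lower for 24 and higher for 0 (median -2.01, against 0.02 over all genes, of which 18.1% were called). Irf7, a master regulator of interferon responses, averaged 38.9 TPM in SPRET, 571 TPM in C57 and 1009 TPM in NOD, and Isg15, a ubiquitin-like modifier, 6.06, 163 and 581 TPM. In NOD minus C57 basal, 10 of the 28 were called higher and 1 lower (median 0.77, against -0.29 over all genes, of which 16.9% were called). The list summed to 1320 to 1340 TPM in SPRET basal libraries and to 4580 to 4900 TPM in NOD. On a list of 10 genes of type I interferon signalling, of which 9 were tested, SPRET minus C57 basal was called higher for 2 and lower for 2. By its mean sum the interferon-stimulated list ordered the strains NOD (4720 TPM), PWK (2870), C57 (2390), BALB (1800) and SPRET (1340). Of the 7 members only Slfn2 had this basal order. Over the 29 libraries, the correlation with the mean of the interferon-stimulated list was 0.88 for Slfn8, 0.82 for Slfn2 and 0.80 for Slfn5. It was 0.75 to 0.78 for Slfn1, Slfn3 and Slfn4 and -0.43 for Slfn9, a description over 10 groups. Rescaling each library by the median of ratios moved the all-gene median of NOD minus C57 by 0.27, and with it Slfn2 passed 2-fold in that pair (1.25 in place of 0.89).

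After 24 hours of IL-4, no member in any strain passed the 2-fold threshold on the log2(TPM + 1) scale (0 of 35 tests, against 2.62% of all gene tests). That scale understates changes of low members: with a pseudocount of 0.1 TPM, 4 were called, all lower. Of the 35 tests, 16 had an adjusted p below 0.05, of which 15 were lower with IL-4. IL-4 acted in these cells: Arg1, the arginase of alternatively activated macrophages, averaged 126 TPM in C57 basal libraries and 3411 TPM after IL-4, and 5.59 and 74.6 TPM in NOD. In C57, 6 of the 7 members fell (20.5% of all genes had an adjusted p below 0.05 and were lower). Slfn4 went to 1.10, 1.35 and 1.42 TPM, a log2 change of -0.99 ± 0.126 (adjusted p = 6.83e-07), Slfn1 to 4.35, 7.00 and 4.12 TPM (-0.75 ± 0.132, adjusted p = 6.07e-05), Slfn5 to 44.1, 43.4 and 31.1 TPM (-0.69 ± 0.116, adjusted p = 3.17e-05) and Slfn2 to 479, 478 and 467 TPM (-0.46 ± 0.0364, adjusted p = 1.47e-10). None of these IL-4 ranges overlapped the basal range. Slfn8 and Slfn3 also fell, by 0.58 and 0.53, and Slfn9 changed by -0.28 without passing the test (adjusted p = 0.158).

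BALB behaved like C57, with the same 6 members lower at an adjusted p below 0.05 (background 24.8%). Slfn8 went to 4.19, 2.72 and 2.51 TPM (-0.91 ± 0.135, adjusted p = 9.62e-06), and Slfn2 went to 306, 295 and 297 TPM (-0.69 ± 0.0364, adjusted p = 1.13e-13). Slfn1 and Slfn4, already low in BALB, went to at most 0.187 and 0.146 TPM. Which member changed most depends on the pseudocount: with 0.1 TPM the BALB changes were -2.10 for Slfn4, -1.86 for Slfn1 and -1.09 for Slfn8, and with 1 TPM -0.74, -0.63 and -0.91. In these 2 strains, 17 (C57) and 26 (BALB) of the 28 interferon-stimulated genes were also lower at an adjusted p below 0.05, with medians of -0.35 and -0.74 against -0.04 and -0.11 over all genes. The neutrophil list was lower after IL-4 in the same libraries, at 106 to 131 and then 16.8 to 24.5 TPM in C57 and at 53 to 60 and then 18.1 to 19.9 TPM in BALB, and so was the monocyte list, at 35.8 to 38.6 and then 13.4 to 18.8 TPM in C57 and at 5.29 to 6.48 and then 2.72 to 4.13 TPM in BALB. In NOD the neutrophil list was at 40.9 to 52.7 and then 15.2 to 18.9 TPM, the monocyte list at 3.45 to 5.61 and then 3.38 to 5.72 TPM. In PWK they were at 552 to 558 and then 552 to 602 TPM, and at 7.46 to 9.26 and then 8.29 to 11.6 TPM. In SPRET they were at 344 to 404 and then 249 to 274 TPM, and at 0.627 to 0.635 and then 0.677 to 1.06 TPM. The part of these cells in the decreases was not tested.

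Most of these decreases did not pass the test in NOD, PWK and SPRET. The paper describes the IL-4 response of NOD as attenuated in general. In NOD only Slfn2 fell, to 1030, 1027 and 987 TPM (-0.25 ± 0.0364, adjusted p = 1.02e-05, where 6.07% of all genes were lower). Slfn5 rose there, from 31.8 to 37.3 TPM to 49.4, 45.6 and 54.3 TPM, with no overlap (0.54 ± 0.116, adjusted p = 0.000959, where 28.2% of all genes were higher and the all-gene median was 0.12). In PWK, Slfn2 fell to 778, 758 and 783 TPM (-0.37 ± 0.0407, adjusted p = 1.00e-07) and Slfn4 to 0.376, 0.279 and 0.527 TPM (-0.41 ± 0.141, adjusted p = 0.0343), where 6.08% of all genes were lower. PWK Slfn4 no longer passed without basal replicate 1 (-0.22, adjusted p = 0.402) or IL-4 replicate 1 or 2 (adjusted p = 0.0706 and 0.123). In SPRET none of the 7 passed (12.9% of all genes were lower), and the 95% interval of the Slfn2 change ran from -0.03 to 0.12. In the separate SPRET time course Slfn2 was lower at 24 hours (-0.36, adjusted p = 0.000481), a value outside that interval.

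The responses themselves were compared with the response of C57, whose 6 libraries all 4 comparisons share. Of 28 such differences, 2 were called, against 2.42% of all gene tests, and 15 were higher and 1 lower than in C57 at an adjusted p below 0.05. The Slfn5 response of NOD exceeded that of C57 by 1.23 ± 0.164 (adjusted p = 3.37e-06), the changes being 0.54 and -0.69. The Slfn4 response of SPRET exceeded that of C57 by 1.09 ± 0.179 (adjusted p = 4.15e-05), where SPRET held at most 0.363 TPM in any library; without C57 basal replicate 2 it was 0.95 and under 2-fold. In NOD, 6 of the 7 members had a response above that of C57 at an adjusted p below 0.05 (background 26.0%), in SPRET 6 (24.4%) and in PWK 3, namely Slfn1, Slfn4 and Slfn5 (16.8%). The Slfn3 difference of NOD and the Slfn1 and Slfn4 differences of PWK did not pass under either rescaling, nor did the lower Slfn2 response of BALB (-0.23 as deposited, adjusted p = 0.145 and 0.0946 rescaled). These 3 higher responses also did not pass when 1 library was left out. For Slfn3 it was C57 basal replicate 2 or IL-4 replicate 3 (adjusted p = 0.0505 and 0.0597). For PWK Slfn1 it was any of 6 libraries, and for PWK Slfn4 any of 5 (0.39 without PWK basal replicate 2). The Slfn8 difference of SPRET did not pass without C57 IL-4 replicate 3 (adjusted p = 0.0554). For the members near 0 in SPRET, a decrease had little room on this scale. The Slfn2 difference of NOD depends on scaling: it was 0.21 (adjusted p = 0.00348) as deposited and -0.02 (adjusted p = 0.876) after rescaling by the median of ratios.

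**Figure D2:**
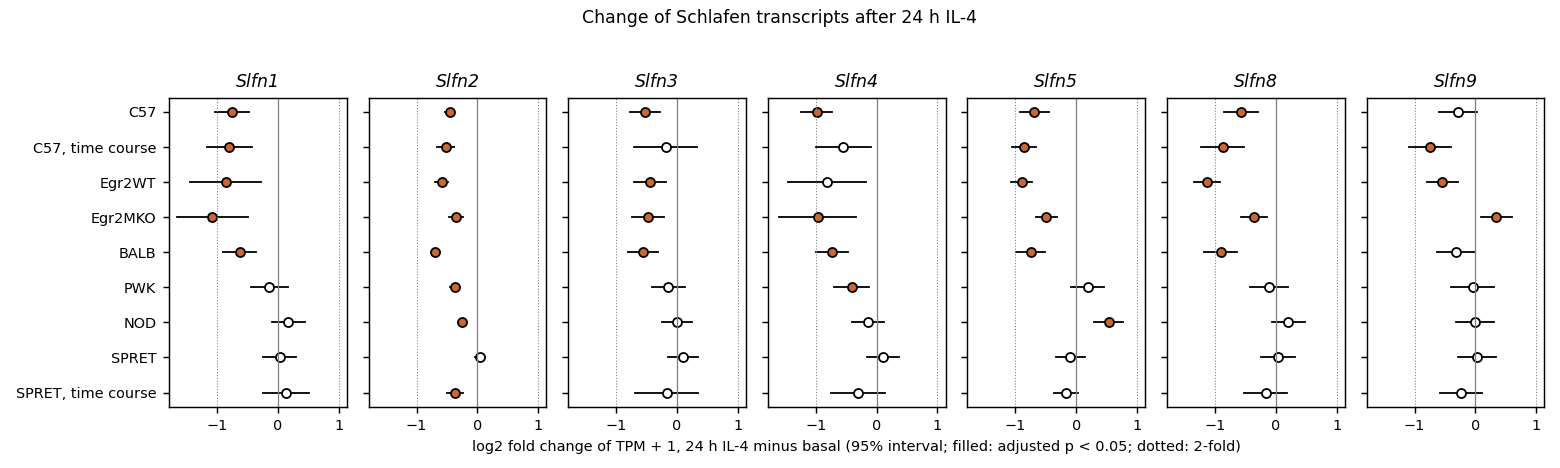
Log2 change of TPM + 1 after 24 hours of IL-4 for each member in 9 sets of libraries, with 95% intervals; filled points have an adjusted p below 0.05 and dotted lines mark 2-fold. Points lie left of 0 in C57, BALB and Egr2WT for all 7 members, NOD Slfn5 lies right of 0 at 0.54, and Egr2MKO Slfn9 lies right at 0.34.

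With IL-4 present, 31 of the 70 strain tests were called (16.7% of all gene tests). The order of the long members changed at the top, where NOD now exceeded C57 for Slfn5 by 0.34 (adjusted p = 0.0125, lost without C57 IL-4 replicate 3 at 0.18, adjusted p = 0.154, or NOD IL-4 replicate 3, adjusted p = 0.0659) and for Slfn8 by 0.64 (adjusted p = 0.000188). Slfn8 measured 13.6, 11.8 and 14.1 TPM in NOD, 8.83, 9.07 and 6.55 TPM in C57, 2.82, 2.83 and 2.38 TPM in PWK, and 0, 0.072 and 0.056 TPM in SPRET. Slfn2 of SPRET (411, 428 and 421 TPM) then lay above BALB (295 to 306 TPM), the reverse of the basal order.

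In the time course of C57 the decreases were seen at 6 and 24 hours. Slfn5 measured 93.7 and 100.2 TPM at 0 hours, 99.9 and 117 TPM at 1 hour, 68.7 and 72.5 TPM at 6 hours and 48.8 and 57.2 TPM at 24 hours. Slfn8 measured 16.6 and 18.9, 20.8 and 24.3, 14.6 and 18.1, and 7.94 and 10.6 TPM at these times. Neither differed from 0 hours at 1 hour; Slfn5 was lower at 6 hours by 0.45 (log2) and at 24 hours by 0.86 ± 0.0919, and Slfn8 at 24 hours by 0.88 ± 0.162 (adjusted p = 0.000954). At 24 hours 5 of the 7 members were lower at an adjusted p below 0.05 (21.1% of all genes), namely Slfn1, Slfn2, Slfn5, Slfn8 and Slfn9. Slfn2 changed by -0.27 at 6 hours and -0.52 at 24 hours. The 6 hour decrease of Slfn2 did not pass without replicate 2 of 0 hours (-0.24) or replicate 1 of 6 hours. None of the 21 C57 tests passed 2-fold on the log2(TPM + 1) scale (2.92% of all gene tests), and 2 did with a pseudocount of 0.1 TPM, both lower. The neutrophil list averaged 80.4, 72.3, 58.6 and 7.31 TPM at 0, 1, 6 and 24 hours in these C57 libraries and 70.9, 71.4, 65.5 and 82.2 TPM in SPRET, and its part in the decreases was not tested.

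In SPRET, Slfn2 was higher at 1 and 6 hours and lower at 24 hours. It measured 334 and 354 TPM at 0 hours, 460 and 440 TPM at 1 hour, 395 and 423 TPM at 6 hours and 269 and 266 TPM at 24 hours, log2 changes of 0.39, 0.25 and -0.36 that all had an adjusted p below 0.05, and they were the only ones of 21 SPRET tests that did (0 called, against 4.02% of all gene tests). The 6 hour change was lost without replicate 1 of 0 hours or replicate 2 of 6 hours (adjusted p = 0.0697 and 0.0822). The difference in response between SPRET and C57 had an adjusted p below 0.05 at 6 hours for Slfn2 (0.52) and at 24 hours for Slfn1 (0.93), Slfn5 (0.70) and Slfn8 (0.71), and none was called (3.14% of all gene tests). Without C57 replicate 2 of 0 hours, those of Slfn1 and Slfn8 were 0.75 and 0.62 (adjusted p = 0.0587 and 0.122), and that of Slfn8 was also lost without any of 4 other libraries (adjusted p = 0.0741 to 0.135).

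Levels in the time course again separated the strains, with 11 of 28 SPRET minus C57 tests called (10 lower, 1 higher; 19.3% of all gene tests). Slfn8 held 0 to 0.287 TPM in all 8 SPRET libraries against 7.94 to 24.3 TPM in C57. Slfn5 lay between 14.3 and 20.8 TPM in SPRET against 48.8 to 117 TPM in C57, with log2 differences of -2.49, -2.36, -2.14 and -1.79 at 0, 1, 6 and 24 hours. Slfn9, which did not separate these strains basally in the 5-strain table, was higher in SPRET at every time, by 0.74, 0.50, 0.49 and 1.26 (4.93 and 4.34 TPM in SPRET against 1.64 and 1.10 TPM in C57 at 24 hours), and the call at 24 hours was the higher one. At 1 and 6 hours the difference of Slfn9 lost its adjusted p below 0.05 without any of 3 and of 2 libraries (adjusted p = 0.0502 to 0.133). Slfn3 was lower in SPRET at 0 and 24 hours (-0.71 and -0.69), and without C57 replicate 2 of either time it was not (adjusted p = 0.21 and 0.169). Slfn1 was called lower in SPRET at 0 and 1 hours, the former lost without C57 replicate 2 of 0 hours (-0.88). The direction of Slfn2 differed between experiments: SPRET was below C57 basally in the 5-strain libraries (-0.68) and above it in the time course (0.20 at 0 hours, adjusted p = 0.0120; lost without C57 replicate 1 at 0.17, adjusted p = 0.0787, without SPRET replicate 2, adjusted p = 0.087, or under either rescaling, adjusted p = 0.0955 and 0.236). TPM is scaled within each library, yet C57 basal levels were not alike in the 5-strain and time-course experiments. Slfn1 averaged 9.19 and 1.15 TPM in them, Slfn3 1.54 and 5.17 TPM and Slfn9 0.614 and 2.98 TPM. What set the experiments apart was not tested.

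**Figure D3:**
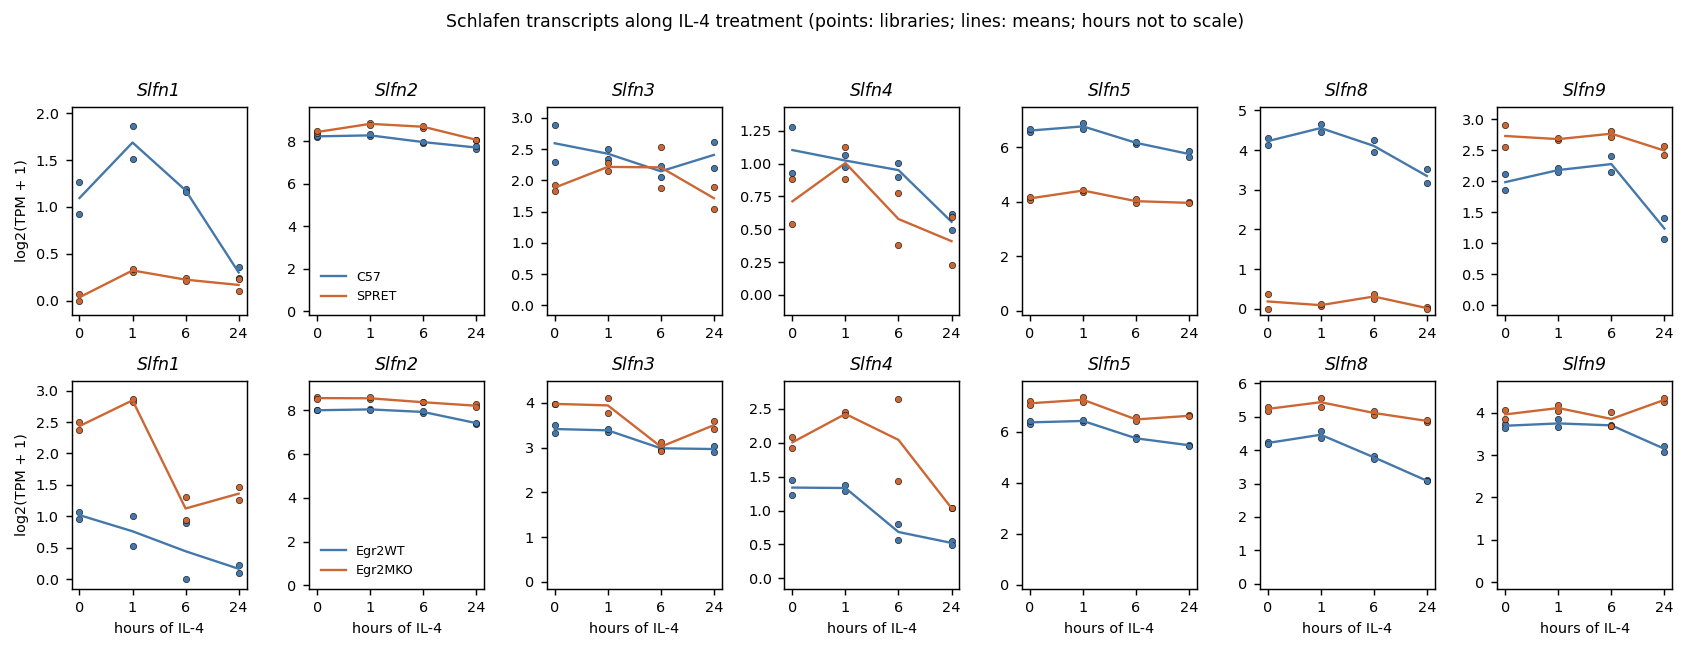
Levels of the members as log2(TPM + 1) at 0, 1, 6 and 24 hours of IL-4 (axis not to scale), 1 point per library with lines through the group means, for C57 and SPRET (upper row) and Egr2WT and Egr2MKO (lower row). Egr2MKO points of Slfn5 and Slfn8 lie above the Egr2WT points at all 4 times, and SPRET points of Slfn8 lie near 0 throughout.

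In Egr2MKO BMDMs most Schlafen transcripts were higher than in Egr2WT. Egr2 itself, the targeted gene, held 21.3 and 23.6 TPM in Egr2WT basal libraries and 99.5 and 100.7 TPM after 24 hours of IL-4, against 0.854 and 0.859 TPM and 4.72 and 7.05 TPM in Egr2MKO, a log2 difference of -3.66 to -4.18 over the 4 times. Of 28 member tests, 21 were higher in Egr2MKO at an adjusted p below 0.05 and 0 lower, and 10 were called higher against 2.19% of all gene tests. With a pseudocount of 5 TPM, 3 were called and 21 again had an adjusted p below 0.05. The 13 tested neighbours of the family within 200 kb were called in 1 of 52 tests, which was lower.

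Slfn8, a long member, had an adjusted p below 0.05 at all 4 times. It measured 17.9 and 17.3 TPM in Egr2WT and 38.2 and 35.3 TPM in Egr2MKO at 0 hours, 22.8 and 19.4 against 38.4 and 46.8 TPM at 1 hour, 13.3 and 12.3 against 32.2 and 35.3 TPM at 6 hours and 7.53 and 7.42 against 27.8 and 29 TPM at 24 hours. The groups overlapped at no time, and the log2 differences were 1.02, 0.98, 1.33 and 1.79 ± 0.0988 (adjusted p at most 4.83e-05). The call at 0 hours was borderline (0.97 without Egr2MKO replicate 1 and 1.00 without Egr2WT replicate 2). Slfn5 held 79.0 and 84.9 against 146 and 131 TPM at 0 hours and 44.4 and 42.6 against 99.6 and 96.6 TPM at 24 hours, with differences of 0.75, 0.83, 0.74 and 1.16 ± 0.0777 (adjusted p at most 6.33e-05). Its antisense partner Slfn5os was higher by 1.31 at 24 hours (adjusted p = 9.67e-05). Slfn9 differed only at 24 hours, when Egr2WT held 7.44 and 8.33 TPM and Egr2MKO 18.1 and 19.4 TPM (1.16 ± 0.117, adjusted p = 1.02e-05); at the earlier times its difference was 0.15 to 0.36 and did not pass.

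The short member Slfn2 was higher by 0.56, 0.51, 0.45 and 0.80 (adjusted p at most 9.52e-05), from 256 and 256 against 386 and 369 TPM at 0 hours to 168 and 172 against 310 and 282 TPM at 24 hours, without overlap and without reaching 2-fold. Slfn1 held 1.10 and 0.95 TPM in Egr2WT and 4.67 and 4.17 TPM in Egr2MKO at 0 hours, and 0.434 and 1 against 6.05 and 6.33 TPM at 1 hour. It was called at 0, 1 and 24 hours (1.42, 2.08 and 1.20 ± 0.265). Across the alternatives these sizes ran from 0.64 to 2.00, 0.97 to 3.04 and 0.36 to 2.94, so each could fall under 2-fold. At 24 hours Egr2WT held 0.075 and 0.169 TPM. Slfn1 was not called at 6 hours (0.68, adjusted p = 0.0934), when 1 Egr2WT library was listed at 0 and the other at 0.849 TPM. Without the latter library the 6 hour difference was 1.12.

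Of the intermediate members, Slfn3 was higher at 0, 1 and 24 hours by 0.56, 0.56 and 0.53 and equal within its spread at 6 hours (7.09 and 6.72 against 7.67 and 6.56 TPM, adjusted p = 0.879). Slfn3 no longer passed at 1 hour without Egr2MKO replicate 2 or Egr2WT replicate 1 (adjusted p = 0.117 and 0.0774), nor at 0 hours without Egr2WT replicate 1 or either Egr2MKO library (adjusted p = 0.06 to 0.0913). Slfn4 was called at 1 hour (1.59 and 1.44 against 4.45 and 4.28 TPM, 1.09 ± 0.291, adjusted p = 0.0310) and at 6 hours (0.745 and 0.477 against 1.70 and 5.26 TPM, 1.36). Without any of the 4 libraries the 1 hour call was lost (adjusted p = 0.112 to 0.153), and without Egr2MKO replicate 2 the 6 hour difference was 0.75. At 0 and 24 hours Slfn4 did not pass (adjusted p = 0.188 and 0.191), although its groups did not overlap.

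Time by time, 5 of the 7 members were higher at an adjusted p below 0.05 at 0 hours (Slfn1, Slfn2, Slfn3, Slfn5 and Slfn8; 5.95% of all genes), 6 at 1 hour (6.04%), 4 at 6 hours (11.5%) and 6 at 24 hours (25.9%). At 24 hours 4 were called, Slfn1, Slfn5, Slfn8 and Slfn9, where 4.55% of all genes were called and the all-gene median was 0.12. Rescaling moved that median by at most 0.12, and all 4 remained called under either rescaling. Interferon-stimulated genes stood alike: 7, 9, 15 and 20 of 28 were called higher and 0 lower at 0, 1, 6 and 24 hours, with medians of 0.75, 0.85, 1.05 and 1.39. Irf7 averaged 110 TPM in Egr2WT and 250 TPM in Egr2MKO at 0 hours and 29.5 and 210 TPM at 24 hours. Of the 9 tested genes of type I interferon signalling, 4 were called higher at 24 hours. The monocyte list summed to 76.6 to 80.3 TPM in Egr2WT and 60.3 to 61.3 TPM in Egr2MKO at 0 hours, and to 18.2 to 19.6 and 18.8 to 20.1 TPM at 24 hours. The neutrophil list was 62.6 to 66.5 against 40.5 to 45.5 TPM and then 20.0 to 22.1 against 11.1 to 16.3 TPM. Neutrophil sums were thus lower in Egr2MKO at both times, and monocyte sums were lower at 0 hours and overlapped at 24 hours. At 0 hours the macrophage list was also lower in Egr2MKO, at 20700 TPM against 24400 to 25900 TPM. The T cell list was higher there (3.48 to 3.71 against 1.81 to 2.2 TPM), as was the dendritic cell list (1.12 to 1.83 against 0.464 to 0.556 TPM). The part of these cells in the genotype differences was not tested.

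**Figure D4:**
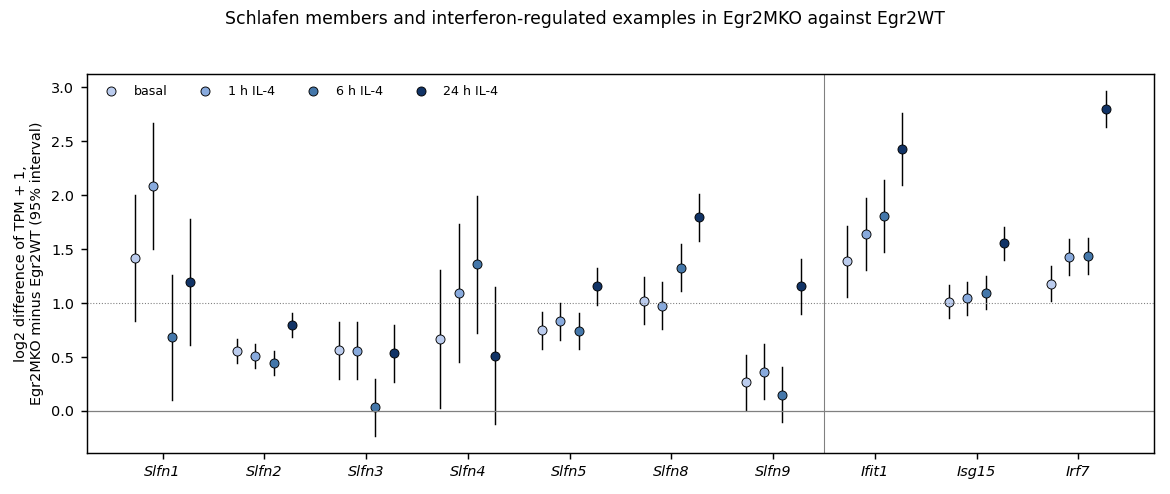
Log2 difference of TPM + 1, Egr2MKO minus Egr2WT, for the 7 members and 3 interferon-regulated genes at 0 (basal), 1, 6 and 24 hours of IL-4, with 95% intervals and a dotted line at 2-fold. All points lie above 0; Slfn8 runs from 0.98 to 1.79 and Irf7 from 1.18 to 2.80.

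Most Schlafen transcripts were lower after 24 hours of IL-4 in both genotypes. Between 0 and 24 hours the mean monocyte sum also went from 78.5 to 18.9 TPM in Egr2WT and from 60.8 to 19.5 TPM in Egr2MKO, and the neutrophil sum from 64.5 to 21.0 and from 43.0 to 13.7 TPM, and their part in the decreases was not tested. In Egr2WT, 6 of 7 members were lower at 24 hours at an adjusted p below 0.05 (18.2% of all genes), and Slfn8 was called (-1.13 ± 0.0988, adjusted p = 2.99e-06), the call of 21 tests over 3 times (2.66% of all gene tests). Slfn5 changed by -0.90 and Slfn2 by -0.59, and Slfn4 by -0.82 without passing (adjusted p = 0.0536). The Slfn1 change of -0.85 was under 2-fold. It did not pass when any of its 4 libraries was left out (-0.79 to -0.91). In Egr2MKO, 6 of 7 were lower at 24 hours (11.8% of all genes), with 2 calls in 21 tests, both for Slfn1, at 6 hours (-1.31) and 24 hours (-1.08), against 3.14% of all gene tests. Both calls were lost with a pseudocount of 0.1 TPM (adjusted p = 0.0994 at 6 hours and 0.208 at 24 hours) and, by size, with 5 TPM (-0.60 and -0.52). The 24 hour call was lost without Egr2MKO basal replicate 1 (adjusted p = 0.0631) or 24 hour replicate 2 (adjusted p = 0.0652). Slfn9 was higher by 0.34 (adjusted p = 0.0458), and it did not pass under either rescaling (adjusted p = 0.0804 and 0.107) or without any of 3 of its 4 libraries. The decreases of Slfn3, Slfn4 and Slfn8 in Egr2MKO were each lost without any of 3 or more of their 4 libraries (adjusted p = 0.0506 to 0.129), and that of Slfn3 in Egr2WT without basal or 24 hour replicate 2 (adjusted p = 0.109 and 0.102).

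The difference in 24 hour response between genotypes was 0.89 ± 0.165 for Slfn9 (adjusted p = 0.00391), 0.77 ± 0.140 for Slfn8 (adjusted p = 0.00339) and 0.41 ± 0.110 for Slfn5 (adjusted p = 0.0308), where 8.78% of all genes were higher. The difference of Slfn5 did not pass under either rescaling (adjusted p = 0.109 and 0.0916) or without any of 6 of its 8 libraries. None of 21 was called (0.706% of all gene tests). The other 4 members did not pass at 24 hours, with 95% intervals of 0.08 to 0.40 for Slfn2 (adjusted p = 0.0534), -0.40 to 0.34 for Slfn3, -1.05 to 0.75 for Slfn4 and -1.04 to 0.60 for Slfn1. Irf7 had a response difference of 1.62 (adjusted p = 3.34e-06) and Ifit1, an interferon-induced RNA-binding protein, of 1.04.

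In F1 mice of C57 and SPRET, reads were split between the parental alleles, in units that cannot be set beside the TPM of the parents. Slfn2 measured 243 and 296 on the C57 allele and 295 and 331 on the SPRET allele in the basal libraries, a log2 ratio of -0.22 with a 95% interval of -0.49 to 0.06. Slfn5 measured 9.42 and 6.18 on the C57 allele and 6.79 and 4.64 on the SPRET allele, a ratio of 0.38 with an interval of -1.27 to 2.03. Slfn9 held 8.03 and 9.70 against 9.16 and 9.47. Of the 4 members that could be tested (Slfn2, Slfn3, Slfn5 and Slfn9), 0 of 8 basal and IL-4 ratios were called (6.02% of all genes) and none had an adjusted p below 0.05. The IL-4 libraries of Slfn5 were uneven, with 1.14 and 12.5 on the SPRET allele. Slfn8, the member with the largest parental difference, was listed at 0 on both alleles in both basal libraries, and its C57 allele was listed at 0 in all 4 libraries, so its allelic balance was not measured. Slfn1 and Slfn4 were at most 1.40 and 0.440 in any allele column. In the F1 table of C57 and NOD, all 7 members were listed at 0 in all 8 allele columns, as were Actb and Gapdh, which every cell uses, and that table was not analysed further.

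Across the 29 libraries of the 5-strain table, Slfn5 and Slfn8 had the most similar pattern of any pair of members (Pearson r = 0.95 of log2(TPM + 1)), then Slfn3 and Slfn4 (0.92) and Slfn1 and Slfn4 (0.90), while Slfn9 was negatively correlated with all others (-0.26 to -0.59). These libraries fall into 10 groups, so the values describe the group means and carry no test. Of the 11907 genes tested, those outside the family closest to Slfn8 were Irgm1, an interferon-inducible GTPase (0.978), Fcf1 (0.971) and the MHC class I gene H2-D1 (0.970). Those closest to Slfn5 were Trim25, a ubiquitin ligase of RNA sensing (0.976), Krr1 (0.973) and Cav2 (0.968). Slfn4 was closest to the chemokine Cxcl10 (0.979), Adam33 (0.972) and Gas5 (0.961), Slfn1 to Mpp7 (0.972), Ly6a (0.963) and Gstm2 (0.948), and Slfn2 to Parp10 (0.966), Mdm2 (0.966) and Ifi35 (0.952). Slfn3 was closest to Agfg1 (0.967), Epc1 (0.960) and Gmeb2 (0.958), and Slfn9 had no gene above 0.850 (Dpy19l1, then Eif4g3 at 0.838 and Pomgnt1 at 0.837).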

How the data were processed

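Poly(A) RNA libraries were sequenced as 75-bp single-end reads on a HiSeq 4000 or NextSeq 500. For each strain the authors built a genome from mm10 and its known variants (MMARGE 1.0), aligned to it with STAR 2.5.3, moved positions back to mm10 and counted over exons with HOMER 4.11.1. The deposited values are TPM, already scaled per library, so depth enters only through the tag totals in the headers (4.69 to 32.9 M). How reads with several hits or antisense reads were counted is not given in the sources used here. For F1 mice the deposited TPM-type values are gene values multiplied by each allele's share of reads over variants and by 10, and zeros there can be failed splits. Columns of the authors' own comparisons (DESeq2 log2 ratios with raw and corrected p-values) and the table of human cells were not used.

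Each table was fitted separately with limma 3.58.1 (R 4.3.3) on log2(TPM + 1), with 1 mean per group, empirical Bayes with trend and Benjamini-Hochberg adjustment over the 11907, 12088 and 12079 genes that reached 1 TPM in 2 or more libraries. F1 allele ratios were fitted per library in the same way with the same filter on allele columns. Fold changes are on the log2(TPM + 1) scale, which understates changes of low genes. The study's methods call the replicates biological; labels do not tie them to animals, and p-values measure the spread between these libraries. The scripts were tested on simulated data. Alternatives were other pseudocounts, no filter, rescaling, only the groups compared, robust empirical Bayes, a replicate block and leaving out each library. Named genes are all members, the 3 genes most alike each member, Ifit1, Isg15 and Irf7 (1 further gene of the rule is not reported here), Arg1 and Chil3, Egr2, and lists of interferon and cell type genes. Members and lists were chosen with earlier results of these data known. Promoter sequences are from RefSeq (GRCm38.p6), searched with Python 3.11.15.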

Additional observations from a re-analysis of the deposited data

Results flagged for a closer look

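Responses to 24 hours of IL-4 differed between strains, by the test of the difference itself, for a pair of members. The Slfn5 response of NOD exceeded that of C57 by 1.23 (log2, limma adjusted p = 3.37e-06), with all 3 NOD IL-4 libraries above all NOD basal libraries and all 3 C57 IL-4 libraries below all C57 basal libraries; across the alternatives it ran from 1.01 to 1.31 and stayed past 2-fold in each. The Slfn4 response of SPRET exceeded that of C57 by 1.09 (adjusted p = 4.15e-05), and it fell under 2-fold with a pseudocount of 5 TPM (0.47), after quantile normalization (0.999) and without C57 basal replicate 2 (0.95). SPRET held 0.116 to 0.363 TPM of Slfn4 in its 6 libraries, so a decrease there had little room on this scale. The Slfn4 difference therefore mostly carries the C57 change of -0.99 and cannot show whether SPRET responds differently. Both comparisons share the C57 libraries.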

How the results depend on the processing

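Counts of member tests past 2-fold moved most with the pseudocount. With a pseudocount of 5 TPM the calls were 3 in place of 10 for Egr2MKO minus Egr2WT, 20 in place of 31 for strain pairs at 24 hours, 1 in place of 2 for response differences among strains, 0 in place of 1 for the IL-4 response of Egr2WT and 0 in place of 2 for that of Egr2MKO. With 0.1 TPM they were 4 in place of 0 for the IL-4 response of the 5 strains, 2 in place of 0 for C57 in the time course, 4 in place of 1 for Egr2WT, 6 in place of 2 for response differences among strains and 1 in place of 0 for those of the time course. Median-of-ratios scaling gave 4 calls in place of 2 for the Egr2MKO response, and quantile normalization 1 in place of 2 for response differences among strains. With only the groups compared, 1 in place of 3 SPRET time-course tests had an adjusted p below 0.05. The Slfn2 response of NOD minus C57 reversed, to -0.018, under median-of-ratios scaling. The scalings moved the all-gene median by up to 0.32 (median of ratios, over 0.1 in 20 of 55 comparisons) and 0.28 (quantile, 17 of 55).

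Leaving out 1 library gave, for calls, 9 to 11 in Egr2MKO minus Egr2WT, 32 to 34 and 30 to 31 in strain pairs basal and at 24 hours, 0 to 1 in the IL-4 response of the 5 strains and of C57 in the time course, 1 to 3 in that of Egr2MKO, 1 to 2 in that of Egr2WT, 1 to 3 in response differences among strains, and 0 to 1 in those of the time course and of the genotypes. For tests with an adjusted p below 0.05, the range was 6 to 12 in the Egr2MKO response (11 with all libraries), 6 to 9 in Egr2WT (9) and 2 to 5 in time-course response differences (4). Strain calls lost in this way were Slfn4 BALB minus C57 at 24 hours (-1 to -0.98, without BALB replicate 1 or C57 replicate 2 or 3) and Slfn5 PWK minus BALB basal (-0.91 without BALB replicate 1, -0.98 without PWK replicate 2). The Slfn4 response of Egr2MKO at 6 hours was 0.64 without replicate 1 and -0.57 without replicate 2 of that time. A group left with 1 library was assumed to vary like the other groups.

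The replicate numbers of the labels are not tied to animals, and deviations of same-numbered libraries had mean correlations of 0.035, 0.041 and -0.019 in the 3 tables. A replicate block lost no member called past 2-fold; it moved 7 member tests across an adjusted p of 0.05, among them the Slfn5 24 hour response difference of Egr2MKO (0.41, adjusted p = 0.0569). Of 224 single results, 175 kept their direction and side of the threshold in every alternative. Depth limits members at or below about 1 TPM, whose differences rest on the pseudocount. In the 5-strain table these were Slfn9, Slfn1 and Slfn4 in BALB, PWK and SPRET, and Slfn3 and Slfn8 in SPRET. Slfn3 was also there after IL-4 in C57 (0.561 to 1.0 TPM) and BALB (0.651 to 0.755 TPM).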
